A study of Mus musculus with 45 samples.

Results

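The 5 mammary tumors of the BRCA1-/-;p53+/- model were compared with the 5 tumors of the C3(1)-Tag model by array comparative genomic hybridization (CGH), in which tumor DNA and reference DNA compete in 2 colours for probes along the genome. The tumors were chosen by the model named in their labels and are 10 of the 45 tumors, from 8 models, in the series. The BRCA1-/-;p53+/- tumors, labelled BRCA1fl/fl;p53+/-;MMTV-cre, arose in mice with loxP-flanked Brca1 alleles, a heterozygous p53 genotype and a Cre recombinase under the mouse mammary tumor virus (MMTV) promoter. That promoter is active mainly in mammary epithelium, so that other cells of a tumor can keep an undeleted Brca1. The C3(1)-Tag tumors, labelled C3(1)/SV40 T/t-antigens, arose in mice with a transgene for the large T and small t antigens of simian virus 40 under C3(1) regulatory sequence. Both groups are labelled as primary, invasive mammary tumors of female mice, with 1 array a tumor and pooled spleen as the reference, although another label field of the reference names normal mammary tissue. Strain and age are not in the labels. The first group is called the BRCA1 tumors in what follows. The p53-/- tumors of the series, to which some values are compared, are labelled p53fl/fl;MMTV-cre transplant.

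BRCA1 acts in homologous recombination, the repair of DNA double-strand breaks from an intact copy of the sequence, and p53 halts or removes cells with damaged DNA. The large T antigen binds and inactivates p53 and the RB family of proteins, which hold back the cell cycle, so both models lose control points that restrain changes in copy number. Both are often used as mouse models of basal-like breast cancer. A log2 ratio of 0 means as much DNA as in the reference, a positive ratio more and a negative ratio less. Normal cells in a tumor pull every ratio towards 0.

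The labels give Cy5 as the tumor and Cy3 as the reference, but the files contradict them. All ratios below are Cy3 over Cy5, opposite to the labelled direction, a choice made after values had been seen. Of the deposited intervals of these 10 tumors, 218 of 229 had the sign of Cy3 over Cy5, and the Brca1 probe described below was low in this direction. A second doubt concerns 2 tumors labelled C3(1)-Tag. Over the 2057 autosomal bins of 1 Mb, the profile of C3TAg_5RPT had a Pearson correlation of 0.96 with that of H2N53 and C3TAg_7RPT of 0.928 with that of H2N61, both labelled MMTV-Her2/neu. The other 988 pairs of arrays in the series reached at most 0.85. Bins of 1 array share their neighbourhood and their reference and are not independent. Tests of the tumor measures, of the length classes and of the autosomes described are therefore also given without C3TAg_5RPT and C3TAg_7RPT, called the 2 doubted tumors, as are the counts of bins and genes that passed. The 10 arrays lay on 6 slides and were scanned on 4 days, and no slide and no scan day held both models, so that these and the model cannot be told apart within the 10 arrays. The single-probe noise SD was 0.20 to 0.36 in BRCA1 tumors and 0.18 to 0.24 in C3(1)-Tag tumors. The median Cy5 signal was 3.60 to 4.94 and 6.42 to 8.35 times its background, respectively.

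Brca1, the gene deleted in the BRCA1 model, comes first. Its sign took part in the choice of dye direction and is no independent check of it, whereas the size of its ratio does not depend on that choice. The array has 2 Brca1 probes on chromosome 11 of mm8, and the probe at 101340828 to 101340887 was strongly reduced in all 5 BRCA1 tumors. Its log2 ratio was -4.69 in Brcap53_503, -3.58 in Brcap53_682, -5.14 in Brca_14, -1.69 in Brca_42 and -4.76 in Brca_54. It lay between -0.20 and 0.12 in the 5 C3(1)-Tag tumors and between -0.64 and 0.78 in the other 35 tumors of the series. The groups did not overlap. In the BRCA1 tumors other than Brca_42 the Cy3 signal of this probe was not well above background, so that the depth of their ratios is set by the background and has no order among the tumors. In Brca_42, at -1.69, both signals were well above background. The other Brca1 probe, at 101314063 to 101314118, was at 0.15 to 0.81 in BRCA1 and at 0.07 to 0.32 in C3(1)-Tag tumors, so that the reduction covered 1 of the 2 probes. With both probes averaged, Brca1 was lower in BRCA1 tumors by a log2 difference of -1.84 ± 0.27 (SE, limma adjusted p = 0.00724, n = 5 and 5), and without C3TAg_5RPT and C3TAg_7RPT the difference was -1.82 (adjusted p = 0.166). With another background correction (normexp) the difference was -0.44 (adjusted p = 0.41). When probes that were not well above background were left out, the reduced probe was among those removed.

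No reduction of like size was seen at Trp53, which encodes p53. Its 2 probes on chromosome 11, at 69396256 to 69396315 and at 69399814 to 69399873, were between -0.33 and 0.09 in the BRCA1 tumors and between -0.22 and 0.17 in the C3(1)-Tag tumors. The groups overlapped, and the mean of the probes differed by -0.09 ± 0.11 (SE, limma adjusted p = 0.783). Where the null p53 allele of this cross lies relative to these probes is not given in the sources used here, so that these probes do not test whether the remaining allele was lost.

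The share of the genome in altered copy number did not separate the models. A bin was called altered when most of its probes lay in segments, runs of probes with a common level, whose mean was at least 0.2 in size. In the BRCA1 model, 10.3% of the 2057 bins were altered in Brcap53_503, 38.7% in Brcap53_682, 56.7% in Brca_14, 16.4% in Brca_42 and 61.4% in Brca_54. In the C3(1)-Tag model, the share was 6.66% in C3TAg2, 0.0486% in C3TAg4, 56.4% in C3TAg_5RPT, 16.1% in C3TAg_7RPT and 84.0% in C3TAg_8_RPT. Both models thus held tumors with few and with many altered bins, and the near-flat C3TAg4 and the widely altered C3TAg_8_RPT were the extremes of all 10. The means were 36.7% ± 23.0 and 32.6% ± 36.1 (SD, n = 5 and 5, two-sided exact permutation p = 0.802, or 0.786 without C3TAg_5RPT and C3TAg_7RPT). Gains covered 16.5% ± 10.5 and 13.99% ± 17.6 (exact p = 0.738), and losses 20.1% ± 13.6 and 18.6% ± 18.6 (SD, exact p = 0.865), and without the 2 doubted tumors the exact p-values were 0.768 and 0.732. With 5 against 5 the smallest p this test can give is 0.00794.

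The number of segments, in contrast, was higher in every BRCA1 tumor than in any C3(1)-Tag tumor. Autosomal segments numbered 225, 226, 227, 218 and 378 in Brcap53_503, Brcap53_682, Brca_14, Brca_42 and Brca_54. They numbered 51, 50, 46, 74 and 88 in C3TAg2, C3TAg4, C3TAg_5RPT, C3TAg_7RPT and C3TAg_8_RPT. Brca_54 stood above the other 4 BRCA1 tumors, which lay close together although their altered shares differed widely. The means were 255 ± 69.0 and 61.8 ± 18.3 (SD, n = 5 and 5), and the difference had the smallest p the exact test can give, 0.00794, or 0.0212 adjusted over the 8 measures compared for each tumor. Without C3TAg_5RPT and C3TAg_7RPT the difference was 192 segments (exact p = 0.0179, the smallest for 5 against 3, adjusted p = 0.0952). In the deposited intervals, called by other software, the counts overlapped, with 9 to 48 intervals in the BRCA1 and 1 to 19 in the C3(1)-Tag tumors (exact p = 0.0556).

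The counts of segments also differed widely between arrays of near-identical profile. C3TAg_5RPT and its near-duplicate H2N53 had altered shares of 56.4% and 54.4%, but 46 and 663 segments, 28 and 492 altered segments and 0 and 71 high-level segments, those with a mean of at least 1 in size. C3TAg_7RPT and H2N61 had altered shares of 16.1% and 17.5%, with 74 and 129 segments, 37 and 67 altered segments and 16 and 18 high-level segments. By its number of segments and of altered segments, H2N53 thus stood above all 5 BRCA1 tumors, whereas C3TAg_5RPT had the fewest segments of the 10 tumors. The noise SD was 0.18 in C3TAg_5RPT and 0.17 in H2N53, and the median Cy3 signal 5.58 and 10.5 times its background. A gap larger than that between the models was therefore found between 2 arrays of like profile, and its cause was not tested.

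Altered segments were likewise more numerous in the BRCA1 tumors. They numbered 109, 140, 172, 121 and 287 in the BRCA1 tumors, in the order given above, and 11, 6, 28, 37 and 79 in the C3(1)-Tag tumors, again with no overlap. The means were 166 ± 71.8 and 32.2 ± 29.0 (SD, exact p = 0.00794, adjusted p = 0.0212), and without the 2 doubted tumors the difference was 133.8 in place of 133.6 (exact p = 0.0357, adjusted p = 0.0952). High-level segments numbered 20, 20, 67, 69 and 84 in BRCA1 and 1, 0, 0, 16 and 9 in C3(1)-Tag tumors. The lowest BRCA1 tumors, Brcap53_503 and Brcap53_682, stood just above the highest C3(1)-Tag tumor, C3TAg_7RPT (difference 46.8, exact p = 0.00794, adjusted p = 0.0212). Without the 2 doubted tumors the difference was 48.7 (exact p = 0.0357, adjusted p = 0.0952). The split within the BRCA1 model followed the arrays. Brca_14, Brca_42 and Brca_54, with 67 to 84 high-level segments, shared 1 slide and 1 scan day and had a median Cy3 signal of 3.67 to 4.34 times its background and a noise SD of 0.27 to 0.36. Brcap53_503 and Brcap53_682, with 20 each, lay on other slides and were scanned on another day, with a Cy3 signal of 8.73 and 8.56 times background and a noise SD of 0.22 and 0.20. Tumor and array cannot be told apart here. With normexp background correction, the mean number of segments was 87.0 and 48.4 (exact p = 0.103), that of altered segments 42.0 and 23.6 (exact p = 0.278), and high-level segments numbered 5.00 and 6.60 on average (exact p = 0.77). Without dim probes the means were 152 and 43.8 segments (exact p = 0.00794), 95 and 20 altered segments (exact p = 0.0159) and 21.6 and 5.20 high-level segments (exact p = 0.0952). With the noise of the noisiest array used for all 10, they were 159 and 25.6 segments (exact p = 0.00794). Why these settings differ was not tested.

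**Figure D1:**
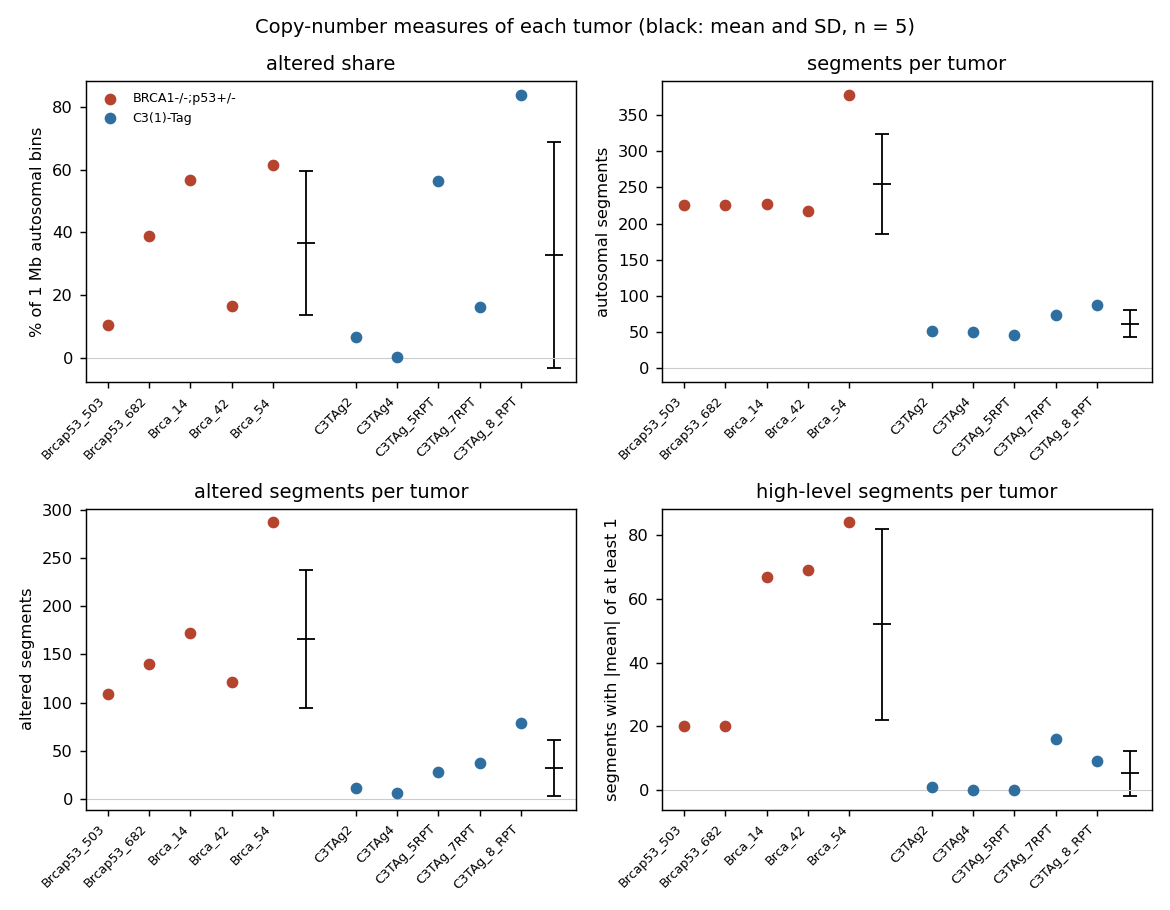
Altered share, autosomal segments, altered segments and high-level segments of each tumor, with 1 point a tumor, BRCA1-/-;p53+/- on the left and C3(1)-Tag on the right of each panel, and the mean with its SD (n = 5) in black. The altered shares of the models overlap fully, whereas the BRCA1-/-;p53+/- tumors hold 218 to 378 segments and the C3(1)-Tag tumors 46 to 88.

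The surplus of altered segments lay mainly in short ones. Altered segments under 1 Mb numbered 87, 81, 98, 93 and 166 in the BRCA1 tumors and 6, 6, 9, 22 and 17 in the C3(1)-Tag tumors, in the order given above. The means were 105 ± 34.7 and 12.0 ± 7.18 (SD, exact p = 0.00794, adjusted p = 0.0317 over 4 length classes), and without the 2 doubted tumors the difference was 95.3 (exact p = 0.0179). Most were also narrow in probes, and 80 of the 87 in Brcap53_503 and 133 of the 166 in Brca_54 had 5 to 9. Segments of 1 to under 10 Mb numbered 17 to 75 and 0 to 26 (exact p = 0.0317, adjusted p = 0.0635, and exact p = 0.143 without the 2 doubted tumors), and the groups overlapped. Segments of 10 Mb or more numbered 5, 29, 33, 11 and 46 in BRCA1 and 2, 0, 17, 5 and 36 in C3(1)-Tag tumors, and their difference did not pass the test (exact p = 0.254, or 0.357 without the 2 doubted tumors). With all altered segments of at least 1 Mb the means were 60.8 and 20.2 (exact p = 0.0714, or 0.196 without the 2 doubted tumors). High-level segments of at least 1 Mb numbered 2 to 5 in BRCA1 and 0 to 5 in C3(1)-Tag tumors (exact p = 0.333). The per-tumor median length of altered segments was 0.20 to 0.61 Mb in BRCA1 tumors and 0.10 to 24.1 Mb in C3(1)-Tag tumors (exact p = 0.167, or 0.304 without the 2 doubted tumors). The lengths differed between arrays of near-identical profile as well, with a median length of altered segments of 24.1 Mb in C3TAg_5RPT and 0.20 Mb in H2N53, and of 0.82 Mb in C3TAg_7RPT and 0.41 Mb in H2N61.

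**Figure D2:**
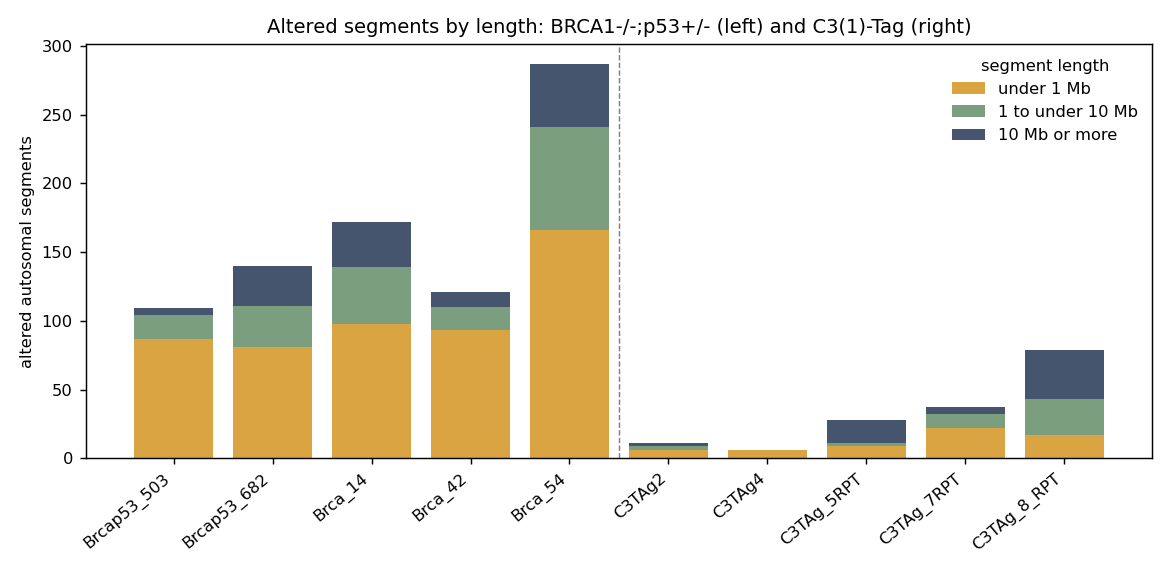
Number of altered autosomal segments in each tumor, stacked by segment length, for the BRCA1-/-;p53+/- tumors on the left and the C3(1)-Tag tumors on the right of the dashed line. Segments under 1 Mb number 81 to 166 on the left and 6 to 22 on the right, whereas those of 10 Mb or more number 5 to 46 and 0 to 36.

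Many of the short segments lay at the same probes in several BRCA1 tumors. Of the short altered segments of a tumor, 73.6% in Brcap53_503, 54.3% in Brcap53_682, 78.6% in Brca_14, 78.5% in Brca_42 and 47.0% in Brca_54 overlapped one of the same direction in another tumor of the model. In the C3(1)-Tag tumors, which had far fewer short segments, the share was 33.3%, 50%, 44.4%, 31.8% and 29.4%, a range that holds the value of Brca_54. Between 1 and 8 of the short segments of a C3(1)-Tag tumor overlapped one in a BRCA1 tumor. Stretches of probes in short segments of all 5 BRCA1 tumors numbered 12, of which 10 were gained and 2 lost, and 11 of the 12 met no short segment in any C3(1)-Tag tumor. At 10 of the 12, at least 4 of the 6 p53-/- tumors of the series had a short segment of the same direction. The stretches were chosen for their values, so these counts are a description.

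Their levels are given as means over the tumors of a model. A stretch of 4 probes on chromosome 7, from 48134915 to 48315862, with the G protein-coupled receptor genes Mrgprb1 and Mrgprb8, had a mean log2 ratio of 2.92 in BRCA1 tumors, -0.14 in C3(1)-Tag tumors and 2.12 in p53-/- tumors. A stretch of 3 probes on chromosome 19, from 40994434 to 41064860, with Blnk, which encodes an adaptor of B cell receptor signaling, had means of -1.64, -0.01 and -1.34 in these 3 models. Another 2 stretches had no short segment in any p53-/- tumor, and 1 of them, on chromosome 11 from 115235124 to 115246687 with Atp5h and Kctd2, had a mean of 1.74 in BRCA1, 0.00 in C3(1)-Tag and 1.17 in MMTV-Myc tumors. Differences between mouse strains in the number or sequence of copies at a probe give ratios of this kind also in normal DNA. The study's text says that the control DNA, from spleen, was of the background strain, without naming the strain of either model, and the labels give pooled spleen. Strain and model cannot be told apart here.

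Whole chromosomes were altered in both models. An autosome counted as gained or lost as a whole when at least 90% of its bins were. Chromosome 15 was gained as a whole in Brcap53_682, Brca_14 and Brca_54, chromosome 6 in Brcap53_682 and Brca_42, and chromosomes 12, 7 and 18 were each lost in 2 of the BRCA1 tumors. In C3(1)-Tag tumors, C3TAg2 lost chromosome 4 alone, C3TAg4 had none, and C3TAg_7RPT gained chromosome 15 and lost chromosome 10. C3TAg_5RPT had 10 whole-chromosome alterations and C3TAg_8_RPT 13, and both lost chromosomes 7, 10 and 13 and gained 17 and 18. The count was 0, 2, 6, 3 and 6 in the BRCA1 tumors and 1, 0, 10, 2 and 13 in the C3(1)-Tag tumors (means 3.40 ± 2.61 and 5.20 ± 5.89, SD, exact p = 0.579, or 0.857 without the 2 doubted tumors). The largest loss of a whole chromosome was that of chromosome 4 in C3TAg2, with a mean log2 ratio of -0.88.

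**Figure D3:**
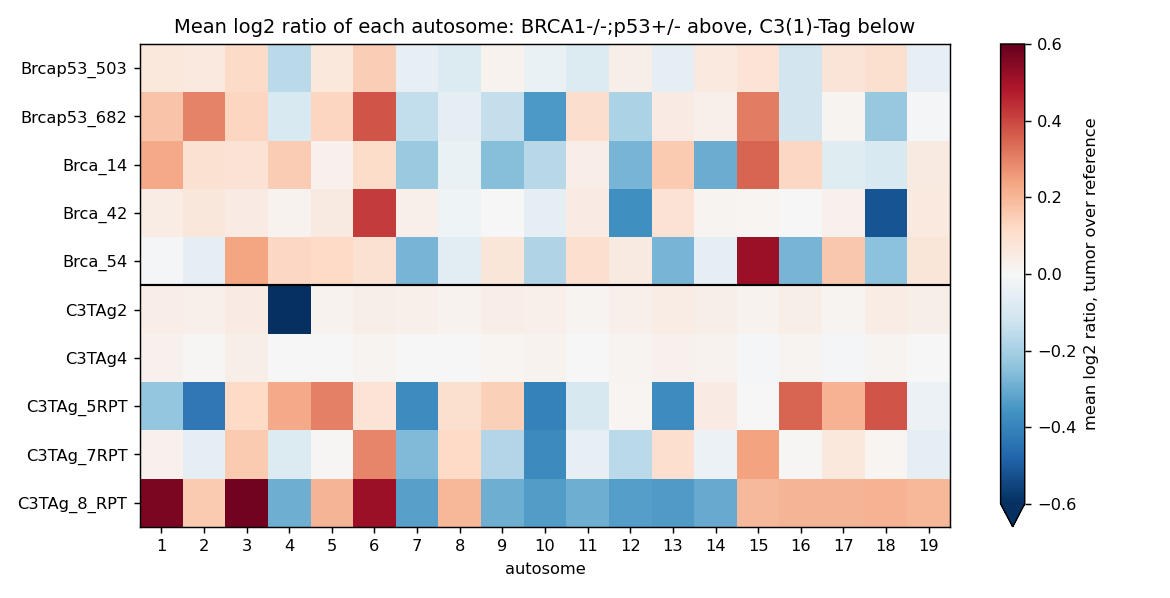
Mean log2 ratio, tumor over reference, of the probes of each autosome (columns) in each tumor (rows), with BRCA1-/-;p53+/- above the line and C3(1)-Tag below. Chromosome 15 is gained in 3 BRCA1-/-;p53+/- tumors, chromosome 4 of C3TAg2 lies at -0.88, below the colour scale, and C3TAg4 is near 0 throughout.

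Of the 19 autosomes, 0 (0%) differed in mean log2 ratio after adjustment, by the exact test and also by limma, and 2 had an unadjusted exact p under 0.05. For the exact test to pass on its smallest p alone, at least 4 autosomes had to reach it, and larger p-values would need more autosomes. Chromosome 8 was lower in every BRCA1 tumor, at -0.08 to -0.03, than in any C3(1)-Tag tumor, at 0.00 to 0.20, a difference of -0.14 (exact p = 0.00794, adjusted p = 0.151). Chromosome 18 was at 0.10 in Brcap53_503, -0.23 in Brcap53_682, -0.09 in Brca_14, -0.52 in Brca_42 and -0.25 in Brca_54. In C3TAg2, C3TAg4, C3TAg_5RPT, C3TAg_7RPT and C3TAg_8_RPT it was at 0.05, 0.02, 0.38, 0.01 and 0.21. All but Brcap53_503 were below every C3(1)-Tag tumor, and the means were -0.20 ± 0.23 and 0.13 ± 0.16 (SD, exact p = 0.0317, adjusted p = 0.302, limma adjusted p = 0.175). Without C3TAg_5RPT and C3TAg_7RPT the differences were -0.13 on chromosome 8 (exact p = 0.0179) and -0.29 on chromosome 18 (exact p = 0.107), with adjusted p-values of 0.339 and 0.622. The bin of chromosome 18 with the largest difference, from 71000001 to 72000000, holds Dcc, a netrin receptor gene long studied as a tumor suppressor, and differed by -0.58 ± 0.14 (SE, limma adjusted p = 0.419).

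Chromosome 15, which carries Myc, had a mean of 0.08, 0.31, 0.35, 0.01 and 0.52 in the BRCA1 tumors, in the order given above, and of 0.02, -0.01, 0.00, 0.24 and 0.20 in the C3(1)-Tag tumors. The groups overlapped (difference 0.16, exact p = 0.167, or 0.196 without the 2 doubted tumors). Chromosome 4 was at -0.16, -0.09, 0.15, 0.02 and 0.12 against -0.88, 0.00, 0.23, -0.08 and -0.29, and the spread within C3(1)-Tag was larger than the difference of 0.21 (exact p = 0.341). Without the 2 doubted tumors the difference was 0.40 (exact p = 0.0536, adjusted p = 0.509). Its bin with the largest difference, from 152000001 to 153000000, holds Trp73, a relative of p53. That bin lay at -0.95 in C3TAg2 and at up to 0.63 in the BRCA1 tumors (difference 0.56 ± 0.20, SE, limma adjusted p = 0.419). The single Trp73 probe, from 152945845 to 152945904, did pass the test of single genes described below. It was at 0.78, -0.27, 1.49, 1.77 and 0.83 in the BRCA1 tumors and at -0.73, -0.24, -0.89, -1.54 and -1.15 in the C3(1)-Tag tumors, a difference of 1.83 ± 0.33 (SE, limma adjusted p = 0.0391). The groups met at Brcap53_682 and C3TAg4, and the Cy5 signal of the probe was not well above background in Brcap53_503. The difference was 1.63 without the 2 doubted tumors (adjusted p = 0.483) and 0.19 with normexp correction (adjusted p = 0.846). The call was also lost with loess normalization (0.175), with all 45 arrays in the fit (0.125), with scan day as a random term (0.0712), and with any 1 of 7 tumors left out (adjusted p = 0.0583 to 0.182), namely Brca_14, Brca_42, Brca_54, C3TAg2, C3TAg_5RPT, C3TAg_7RPT and C3TAg_8_RPT.

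By limma, 0 of the 2057 bins (0%) passed an adjusted p of 0.05, and 193 had an unadjusted p under 0.05, of which 57 were higher in the BRCA1 tumors. The smallest adjusted p was 0.419. Without the 2 doubted tumors 0 bins passed as well. For an exact permutation test of each bin to pass on its smallest p alone, 327 bins or more had to reach it, and 43 did.

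Some regions recurred within a model, given here as counts with no test. Bins gained in at least 4 of the 5 tumors numbered 44 in BRCA1 and 0 in C3(1)-Tag, and bins lost in at least 4 numbered 49 and 0. Bins gained in at least 3 numbered 186 and 11, whereas those lost in at least 3 were nearly equal in number, at 225 and 216. Of the 44, 43 lay on chromosome 6, mostly between 3000001 and 60000000, and the 49 lay on chromosomes 11, 12 and 18. The 14 bins of chromosome 11 from 21000001 to 37000000 had a mean log2 ratio of -0.23, -0.35, -0.31, 0.01 and -0.24 in the BRCA1 tumors and of 0.03, -0.01, -0.13, -0.04 and -0.30 in the C3(1)-Tag tumors. Brca_42 alone kept the region near 0, and in the other model only C3TAg_8_RPT was called lost there. The 12 bins of chromosome 6 from 47000001 to 60000000 were at 0.54, 0.44, 0.46, 0.40 and 0.02 against 0.02, 0.02, 0.09, -0.03 and 0.60. Brca_54 was thus the exception within its model and C3TAg_8_RPT in the other, and the smallest bin p there, adjusted, was 0.419.

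In C3(1)-Tag tumors, loss in 3 of the 5 tumors was the highest recurrence of any lost bin. It covered 112 bins of chromosome 10 and 104 of chromosome 7, in C3TAg_5RPT, C3TAg_7RPT and C3TAg_8_RPT. From 49000001 to 130000000 on chromosome 10 these 3 tumors were at -0.39, -0.37 and -0.32, and C3TAg2 and C3TAg4 at 0.02 and 0.03. In the BRCA1 tumors the same stretch was at -0.01, -0.44, -0.16, -0.10 and -0.14, lowest in Brcap53_682. Of the 3 tumors with these losses, 2 are those with doubted labels. Among the other 3 C3(1)-Tag tumors, 0 bins were lost in all 3 and 132 in at least 2. The bin of chromosome 11 with the largest difference, from 118000001 to 119000000, holds Rbfox3, a neuronal splicing factor gene. This bin was at 0.15, 0.64, 0.54, 0.13 and 0.42 in BRCA1 and at 0.03, -0.08, -0.09, 0.00 and -0.29 in C3(1)-Tag tumors. The groups did not overlap in this bin, which was picked for its difference. That difference, 0.46 ± 0.12 (SE), had a limma adjusted p of 0.419.

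The highest segment mean of the BRCA1 tumors lay on chromosome 6. In the BRCA1 tumor Brca_14, a segment of 25 probes from 15327864 to 17778294, 2.45 Mb long, had a mean log2 ratio of 5.36. Its highest probe, in Gm4876, was at 6.81. The segment holds Met, which encodes the receptor tyrosine kinase for hepatocyte growth factor. The Met probes were at 5.56 and 5.43 in Brca_14, and Met averaged 0.69 in Brcap53_503, 0.09 in Brcap53_682, 0.31 in Brca_42 and 0.04 in Brca_54. In the C3(1)-Tag tumors Met was between 0.01 and 0.05, except in C3TAg_8_RPT, where it was at 0.72. This amplicon was held by 1 of 5 BRCA1 tumors, and the model difference of 1.16 ± 0.81 (SE) had an adjusted p of 0.585 (1.08 and 0.848 without the 2 doubted tumors). Elsewhere in the series, Met was at 1 or more in 4 of 6 p53-/- tumors, at 4.57 to 5.47, and in 1 MMTV-Wnt1 tumor, at 1.92.

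**Figure D4:**
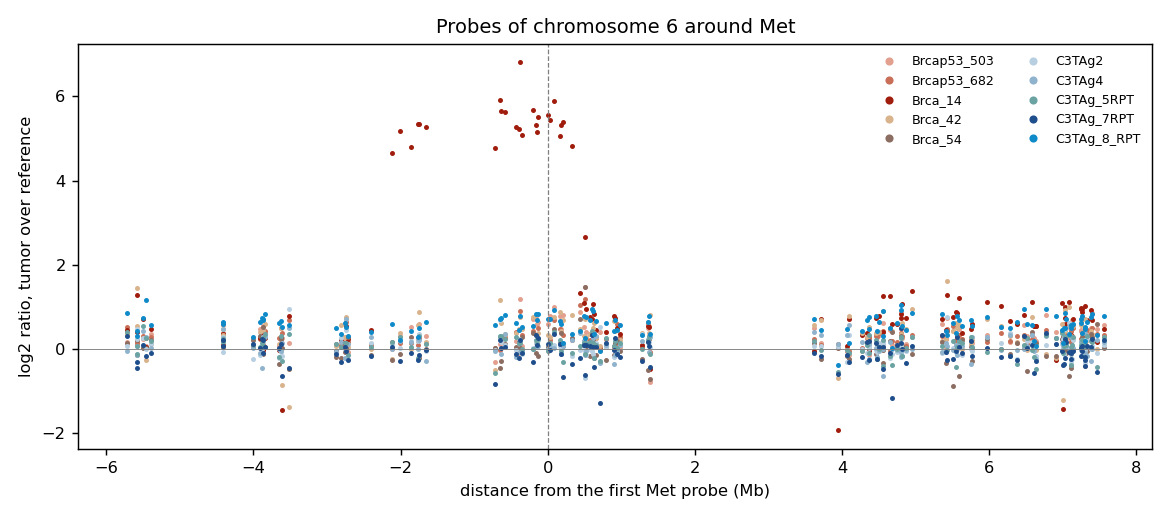
Log2 ratio, tumor over reference, of single probes within 8 Mb of Met on chromosome 6, by distance from the first Met probe, with 1 colour a tumor. Brca_14 alone rises above 4 as a continuous run, from about 2 Mb before Met to just beyond it, and the other 9 tumors stay below 2 throughout.

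At the level of single genes, 42 of 20178 gene names (0.208%) differed between the models by limma at an adjusted p of 0.05, 34 higher in BRCA1 tumors (0.169%) and 8 lower (0.0396%). An unadjusted p under 0.05 was seen for 2480 (12.3%). Brca1 was among the 8. The 42 were spread over 15 chromosomes and 39 rested on 1 or 2 probes. The median difference in the direction of the call was 1.59 for the genes and 0.19 for the 1 Mb bins around them, so that most of these differences did not extend over their bin. For 40 of the 42 the groups did not overlap, but they were called for their difference in these same tumors, so this adds no support. The other models had no part in these calls. In p53-/- tumors, 24 of the 42 had a mean of at least 0.5 in the same direction, against 2 to 6 in each of the 5 other models. Without C3TAg_5RPT and C3TAg_7RPT, 13 genes passed, all of them among the 42, and with normexp correction 6 passed, 4 of them among the 42.

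The gene with the largest difference was Pif1, a DNA helicase gene with 1 probe on chromosome 9, from 65392319 to 65392378. It was at 2.68, 4.20, 4.98, 4.28 and 5.57 in the BRCA1 tumors and at -0.36, -0.40, -0.53, -0.46 and -1.37 in the C3(1)-Tag tumors, a difference of 4.96 (limma adjusted p = 8.9e-05). Gprc5d, an orphan receptor gene on chromosome 6, was at 1.78 to 2.64 against -0.15 to 0.27. Limk1, which encodes a kinase of the actin cytoskeleton, was at 1.37 to 3.12 against -0.44 to 0.12. Each of the 5 tumors of a model carried these ratios, and no tumor lay between the groups. Among the 8 lower genes, Blnk was at -2.63 to -2.14 against -0.14 to 0.09, the smallest limma adjusted p of all genes (1.58e-06). Slc10a7, a gene of the solute carrier family on chromosome 8, was at -2.56 to -1.08 against -0.21 to 0.14, and Wnt8b, a Wnt ligand gene on chromosome 19, at -2.62 to -0.86 against -0.07 to 0.25. These genes were taken from the calls for their values. Pif1, Limk1 and Blnk lie in stretches shared by all 5 BRCA1 tumors, described above, where strain and model cannot be told apart. Their means in p53-/- tumors were 3.44, 1.62 and -1.88, whereas those of Gprc5d, Slc10a7 and Wnt8b were -0.15, -0.09 and -0.12. Of the 42 genes, 19 had a probe that was not well above background in at least 1 of the 10 tumors, among them Brca1, Pif1, Limk1, Blnk, Slc10a7 and Wnt8b, so that the sizes of these ratios depend on the background. The share of all genes with such a probe is not given here. Of the spots of an array, 96.9% to 99.8% were well above background in both dyes.

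**Figure D5:**
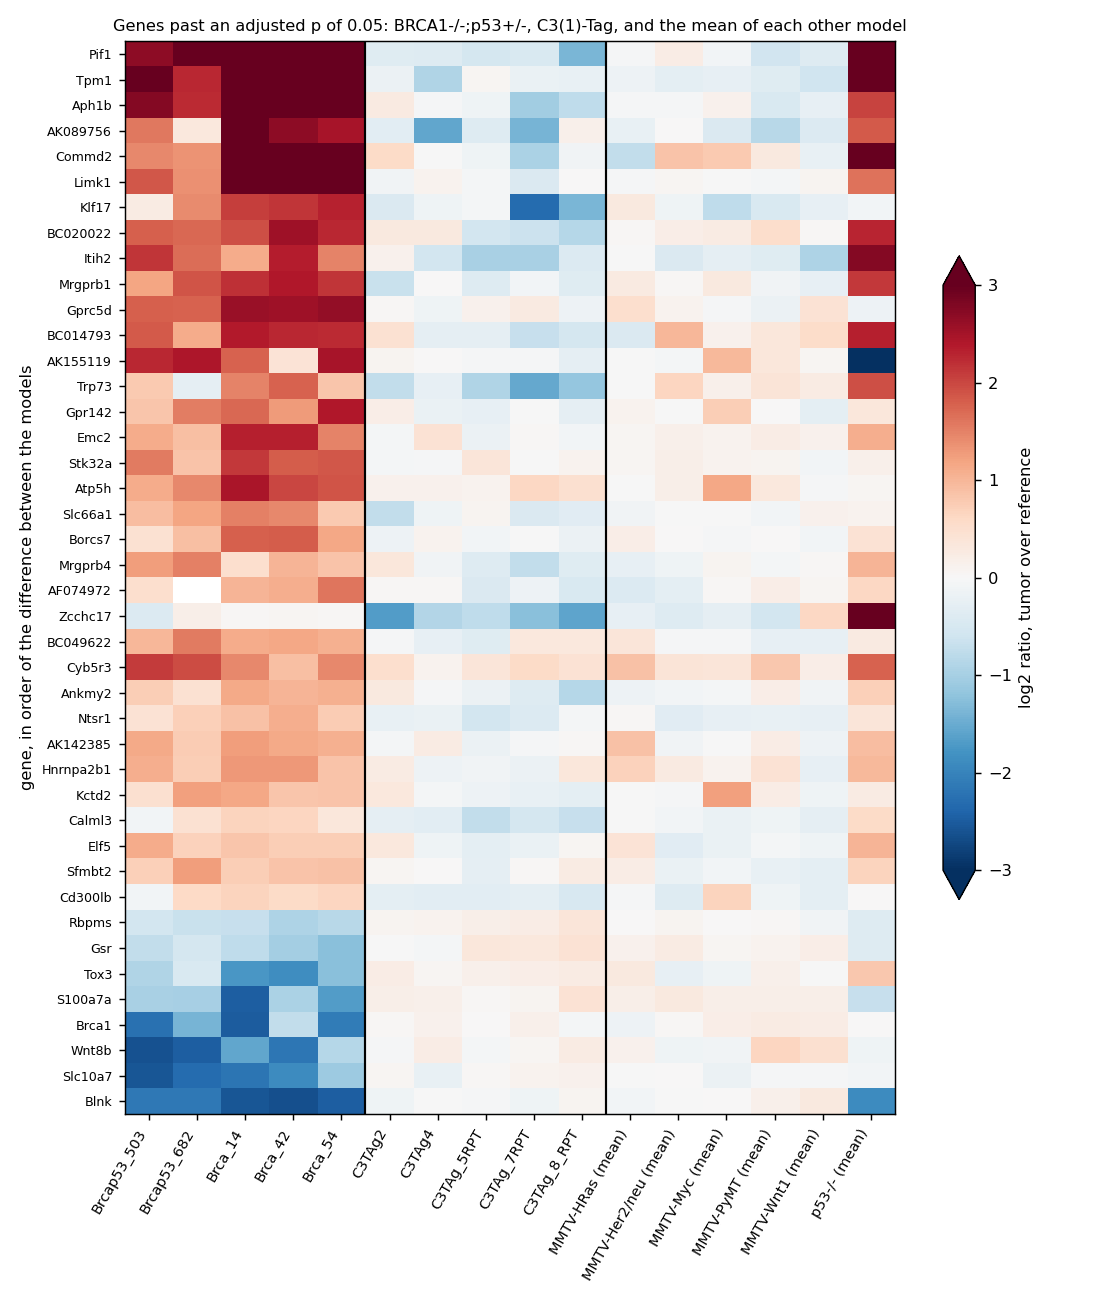
Log2 ratio of the 42 genes past an adjusted p of 0.05 (rows, ordered by the difference between the models) in the 10 tumors and, to the right, the mean of each of the other 6 models. The colour scale ends at 3 in size, and the white cell is a missing value. The C3(1)-Tag tumors lie mostly near 0, and the p53-/- mean has the direction of the BRCA1-/-;p53+/- tumors, at 0.5 or more, for 24 of the 42.

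Genes of homologous recombination other than Brca1 did not pass the test. Of the 24 genes of the list, 22 were on the array, and 1, Brca1, was called (0.208% of all genes were called). The median difference of the 22 was -0.02, beside 0.01 over all genes, and 1 of the 22 had an unadjusted p under 0.05, beside 12.3% of all genes. Without the 2 doubted tumors, the genes named from this and the following lists, other than Brca1 and Elf5, had limma adjusted p-values of 0.778 or more. Brca2, which acts in the same repair pathway as Brca1, was at 0.17 to 0.84 in BRCA1 and at -0.03 to 0.29 in C3(1)-Tag tumors, with the groups overlapping (difference 0.28 ± 0.14, SE, limma adjusted p = 0.44). Its 2 probes lay in different segments in Brca_14 and Brca_42, the second in a segment with a mean of -1.54 and -1.64, respectively. The probes themselves were at 0.76 and 0.11 in Brca_14 and at 1.102 and -0.42 in Brca_42. Xrcc3, a gene of the same pathway with 1 probe, was at 1.65 in C3TAg_7RPT and 1.90 in C3TAg_8_RPT and between -0.29 and 0.52 in the other 8 tumors (difference -0.74 ± 0.35, SE, limma adjusted p = 0.413). Chek2, a checkpoint kinase gene, was at -0.42 to 0.13 against -0.21 to 0.30.

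In the p53 and RB pathways, 0 of 18 measured genes of 20 passed, beside 0.208% of all genes. An unadjusted p under 0.05 was seen for 0 of them, beside 12.3% of all genes. The median difference was 0.03, beside 0.01 over all genes. With so small a share called over all genes, a list of this size without a call says little about the pathways. Mdm4, which encodes an inhibitor of p53, reached 0.60 in Brca_14 and 0.62 in C3TAg_8_RPT. Cdkn1a, which encodes the cell cycle inhibitor p21, was at -1.09 in Brca_54 and between -0.09 and 0.55 in the other 9 tumors. Ccnd1, the gene of cyclin D1, was at -1.82 in Brca_14, on 1 probe, and at -0.70 to 0.18 elsewhere. Ccne1, the gene of cyclin E1, was at -0.63 in Brca_54 and at -0.59 to -0.74 in C3TAg_5RPT, C3TAg_7RPT and C3TAg_8_RPT, in each of which chromosome 7, its chromosome, was low. None of these 4 separated the models, and their differences lay between -0.31 and 0.27, with limma adjusted p-values of 0.658 to 0.837.

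Of the oncogenes and tumor suppressors of basal-like breast cancer, 20 of 22 were measured and 0 passed, beside 0.208% of all genes. An unadjusted p under 0.05 was seen for 1, beside 12.3% of all genes, and the median difference was -0.10, beside 0.01. Met, described above, was a member of this list in a high-level segment. Trib1, a pseudokinase gene near Myc, was at -0.19 to 0.59 against -0.24 to 0.10.

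Among basal lineage genes, 11 of 12 were measured and 1, Elf5, was called higher (0.169% of all genes were), with a median difference of 0.23 beside 0.01 over all genes and 5 of the 11 at an unadjusted p under 0.05, beside 12.3% of all genes. Of these 5, Elf5, Krt14 and Acta2 were higher and Trp63 and Cryab lower. Elf5 was placed in this list but encodes a transcription factor of mammary alveolar and luminal progenitor cells, so that no basal cell gene of the list was called. It averaged 1.104, 0.70, 0.83, 0.75 and 0.75 in the BRCA1 tumors and 0.32, -0.12, -0.30, -0.20 and 0.06 in the C3(1)-Tag tumors, a difference of 0.87 ± 0.14 (SE, limma adjusted p = 0.0209). Without C3TAg_5RPT and C3TAg_7RPT the difference was 0.74 (adjusted p = 0.405). The call was also lost with Brca_14, C3TAg4, C3TAg_5RPT, C3TAg_7RPT or C3TAg_8_RPT left out alone (adjusted p = 0.0537 to 0.0919), with all 45 arrays in the fit (0.0598), with another centring of each array (0.0566) and with normexp correction (0.158). Its 2 probes on chromosome 2 stood far apart in every tumor. The probe at 103250514 to 103250572 was at 1.34 to 2.44 in BRCA1 and at 0.03 to 0.82 in C3(1)-Tag tumors, and the probe at 103227481 to 103227540 at -0.30 to 0.32 and -0.82 to -0.18. The average therefore does not describe the copy number of the whole gene.

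The other 10 genes of the list did not pass. Trp63, which encodes the p63 protein of basal cells, was at -1.35 in Brca_54 and -0.60 in Brca_14, and at -0.09 to 0.52 in C3(1)-Tag tumors (difference -0.63 ± 0.25, SE, limma adjusted p = 0.339). Acta2, the smooth muscle actin gene, was at -0.03 to 0.72 against -0.37 to 0.13, and Cryab, a small heat shock protein gene, at -0.97 to -0.15 against -0.23 to 0.29. Of 10 luminal lineage genes, 9 were measured on autosomes and 0 passed, beside 0.208% of all genes. An unadjusted p under 0.05 was seen for 1, beside 12.3% of all genes, and the median difference was 0.08, beside 0.01. Esr1, the estrogen receptor gene, was at 0.01 to 0.59 against -0.17 to 0.02. Gata3, a luminal transcription factor gene, was highest in Brcap53_682, at 0.83, and lowest in C3TAg_5RPT, at -0.75. Erbb2, the gene of the HER2 receptor, was at 0.13 to 0.39 against -0.34 to 0.55, and Xbp1, a gene of the unfolded protein response, at -0.63 to 0.07 against -0.20 to 0.44.

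The profiles of BRCA1 tumors were weakly correlated with each other. Over the 2057 bins, the Pearson correlation of the 10 pairs was 0.11 to 0.37, with a median of 0.26. The 10 pairs of C3(1)-Tag tumors ranged from -0.22 to 0.68, with a median of 0.11, and the 25 pairs across the models from -0.13 to 0.35, with a median of 0.10. The lowest BRCA1 pair thus lay near the median of the pairs across the models. The 3 pairs of C3(1)-Tag tumors left without the 2 doubted ones were at 0.04 to 0.22. These correlations describe single arrays, and all arrays share a reference label.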

How the data were processed

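DNA of 45 tumors was measured, of which 10 are reported. For each array the authors deposited the scanner table made by Agilent Feature Extraction (9.5.1.1 by its header, 10.7 by the submitters' processing notes). Its processed intensity of each dye, already background-subtracted and dye-normalized when deposited, and its log10 ratio were read. An interval table of the authors, with mean log2 ratios, served for the dye direction and as another caller. Tables of single models, which hold filtered copies of these intervals, and the authors' p-values were not used.

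Control and outlier-flagged spots were left out and spots of a probe averaged (42235 probes, mm8). Log2 ratios, Cy3 over Cy5, had the median of the autosomal probes of their array subtracted. Circular binary segmentation (Python 3.11.15, numba 0.67.0) accepted a split at a statistic over 6 and segments of at least 5 probes. Bins of 1 Mb needed 3 probes and were given the median of their probes. Bins and genes (mean over probes; 14657 autosomal names matched in a RefSeq table of GRCm38.p6, used for names only) were fitted with limma 3.58.1 in R 4.3.3 on the 10 arrays, with Benjamini-Hochberg adjustment over all. Of the gene names, 290 had a missing value in at least 1 array, and their fit used the other arrays. Other values had two-sided exact permutation tests. The tumors are labelled as separate, and nothing more is said of the animals. Scripts were tested on simulated data. The number of arrays and the noise of a probe limit the precision.

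The members and gene lists were chosen with earlier results of these data known. Some genes that the following rule names are not reported here. Named genes are the targeted genes, members of each list in high-level segments, the 4 of each list with the largest difference, the gene of the highest probe of the described segments, and that of the most different bin of the described autosomes. Alternatives changed the labels used, centring, background correction, loess, dim and outlier spots, thresholds, segmentation, caller, bin size, dyes, arrays in the fit, slide, scan day and array weights, and left out each tumor in turn. A correction for GC content was not made.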

Additional observations from a re-analysis of the deposited data

Results flagged for a closer look

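Of 96 sets of 5 values, 8 had a tumor whose gap to its nearest neighbour took more than 0.71 of the range of its model, and chance alone gives about 1 in 20. Brca_54 had 378 segments, next to 227, and C3TAg_5RPT a median altered segment of 24.1 Mb, next to 6.29 Mb. C3TAg_8_RPT had a mean log2 ratio of 0.58 on chromosome 3, next to 0.16, and of -0.30 on chromosome 14, next to -0.03. Met was at 5.50 in Brca_14, next to 0.69, and at 0.72 in C3TAg_8_RPT, next to 0.05. Gata3 was at 0.83 in Brcap53_682, next to 0.01, and at -0.75 in C3TAg_5RPT, next to -0.22.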

How the results depend on the processing

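Under the alternatives run, 0 autosomes passed in any, and 0 bins in all but 1 (1 bin without the BRCA1-/-;p53+/- tumor Brcap53_503; 0 to 1 over the tumors left out). The count of 42 genes was 13 without C3TAg_5RPT and C3TAg_7RPT, 6 with normexp, 23 without dim probes and 261 with all 45 arrays in the fit, and 21 to 89 with 1 tumor left out (89 without Brcap53_682, 87 without Brcap53_503, 21 without C3TAg_5RPT or C3TAg_7RPT, 25 without C3TAg_8_RPT and 27 without C3TAg4). It was 39 with slide and 33 with scan day as a random term. The difference in segments, 193, was 38.6 with normexp (exact p = 0.103) and 162 to 202 with 1 tumor left out. It was 109 at a split statistic over 8 and 259 at one over 5. That in altered segments, 134, was 18.4 with normexp and 18.2 with the deposited intervals (exact p = 0.0556). It was 40.6 with segments of at least 1 Mb, an alternative added after seeing the data, and 103 to 148 with 1 tumor left out. At a split statistic over 8 it was 73, and at one over 5 it was 182. That in high-level segments, 46.8, was -1.60 with normexp, 16.4 without dim probes, 7 with at least 10 probes a segment and 1.40 with segments of at least 1 Mb. It was 10.2 with the deposited intervals (exact p = 0.0317) and 38.8 to 54.8 with 1 tumor left out. At a split statistic over 8 it was 27.8, and at one over 5 it was 53.2. The difference in median length, -5.95 Mb, passed with the noise of the noisiest array (-61.1 Mb, exact p = 0.0159, C3TAg4 then having no altered segment) and at a threshold of 0.3 (-3.39 Mb, exact p = 0.0476), and was -7.52 to -1.52 Mb with 1 tumor left out, passing without C3TAg4 (exact p = 0.0238). The differences in altered, gained and lost share, 4.04, 2.55 and 1.497 percentage points, stayed without a call but not in one direction: altered share was -3.93 with normexp, lost share -7.75 with normexp and -2.90 at a threshold of 0.3, and with 1 tumor left out they were -4.10 to 16.9, -0.94 to 9.003 and -3.16 to 7.87. Whole-chromosome alterations differed by -3.10 to 0.15 with 1 tumor left out. The causes were not tested. Among named genes, Brca1 was at 0.24 without dim probes, which removes its reduced probe, and at -0.44 with normexp (adjusted p = 0.41). Mdm4 was at -0.0217 without C3TAg_5RPT and C3TAg_7RPT and -0.0617 with normexp, and Ccnd1 at 0.0157 without Brca_14 and -0.456 to 0.0157 with 1 tumor left out. Elf5 passed in 12 of its 21 alternatives, with adjusted p-values of 0.00907 to 0.405. Turning the dyes as labelled exchanges gains and losses. No paired analysis was possible because the replicate numbers are in accession order and link no tumors of the models.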
